A study of Caenorhabditis elegans with 9 samples.

Results

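Whole Caenorhabditis elegans larvae of strain HBR1114, which carries the nas-38 allele tm2655, were compared by RNA sequencing with larvae of the wild type strain N2. Animals of both strains were picked by hand during L4 lethargus, the quiet, sleep-like period before the last molt. The comparison took in the 3 tm2655 and the 3 wild type libraries, 6 of the 9 libraries of the study, and every one of the 46699 genes in the deposited annotation. The other 3 libraries came from strain HBR1010 with the allele ok3407. In the deposited tables tm2655 is headed loss of function and ok3407 gain of function. Each genotype is 1 strain, so the allele and any other difference between HBR1114 and N2 cannot be told apart. All 9 libraries were raised on the same bacterial food and collected at the same stage, per the labels.

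The nas-38 gene encodes a secreted zinc metalloprotease of the astacin family. Several astacins process collagens or loosen the old cuticle at the molt, and lethargus is the time at which larvae build the new cuticle underneath. The epidermis also makes antimicrobial peptides, which are induced by wounding and by fungal infection through a p38 kinase cascade and the STAT-like factor STA-2. Sleep in this period depends on the neuron RIS and its peptide FLP-11.

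Depth was 13.8 to 32.9 megareads in genes, exons and introns together, in the 6 libraries, with the shallowest in wild type replicate 1, and it reached 40.5 megareads in ok3407. Levels are given in CPM, reads per megaread of library after TMM scaling, and differences as log2 fold changes with their standard error (SE). The SE rests on a spread estimated over all 9 libraries, ok3407 included. A filter on low counts left 16055 genes for testing, and 30644 genes were not tested. Markers of muscle, intestine, neurons, epidermis and germ line were read in every library, as whole larvae should give. In bulk libraries of whole animals, fewer cells of a type and less RNA per cell cannot be told apart. Over the 16055 genes, the rank correlation of CPM was 0.9719 to 0.9807 among the tm2655 libraries and 0.9751 to 0.9843 among the wild type libraries. Between a tm2655 and a wild type library it was 0.9635 to 0.9893, with the lowest value between replicate 1 of each and the highest between replicate 3 of each. Against ok3407 libraries it was 0.9427 to 0.9723 for the 6 libraries. These correlations are across genes of libraries prepared alike and are given as a description. Library tm2655 replicate 1 stood apart from all others on principal component 3 (11.93% of variance), at 66.1 against -20.1 to 5.32, so results that rest on it are also given without it. Wild type replicate 1 was the highest on principal component 2 (17.62%), at 54.7 against -38.6 to 29.6.

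The tm2655 transcriptome lay close to wild type. A single gene, cal-6, rose past the threshold (edgeR quasi-likelihood test, Benjamini-Hochberg adjusted p under 0.05), which is 0.00623% of the genes tested in the higher direction and also in either direction. In the lower direction edgeR called 0 genes, 0% of those tested. At an unadjusted p under 0.05 there were 292 genes higher (1.82%) and 105 lower (0.654%), 397 in either direction (2.47%). DESeq2 on all 9 libraries called 4 genes (0.0183%): cal-6 and F23D12.11 as higher, nas-38 and fbxa-192 as lower. For scale, the same edgeR model called 1001 genes (6.23%) between ok3407 and wild type and 645 genes (4.02%) between ok3407 and tm2655.

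Most genes were measured closely enough to bound the change. The 95% interval of the tm2655 effect lay within 2-fold in both directions for 10403 genes (64.8%) and within 4-fold for 14318 genes (89.2%). The log2 fold change was above 0 for 52.4% of genes, with a median of 0.01 over all genes tested. All 3 tm2655 libraries lay above all 3 wild type libraries for 618 genes (3.85%) and below them for 420 genes (2.62%). By chromosome, the median log2 fold change ran from 0.00 on chromosomes I and IV to 0.04 on chromosome V.

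**Figure D1:**
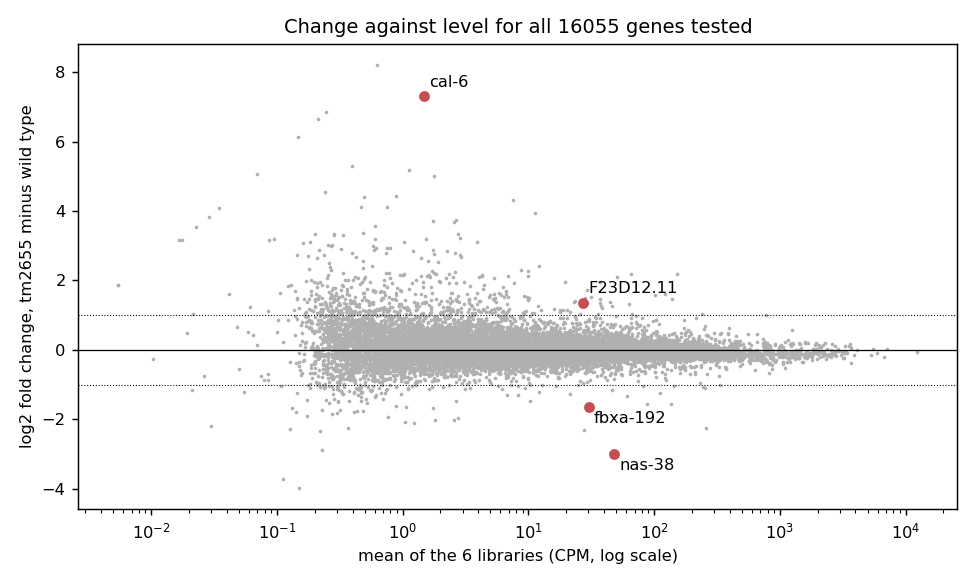
Each point is 1 of the 16055 genes tested, with its mean over the 6 tm2655 and wild type libraries in CPM on a log axis and its log2 fold change, tm2655 minus wild type. Dotted lines mark 2-fold. The cloud narrows around 0 as the level increases, and the genes in red are the 4 that DESeq2 called.

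The mutated gene itself had the second smallest p-value of the comparison. In tm2655 the CPM of nas-38 was 10.04, 14.4 and 7.56 in replicates 1, 2 and 3, while in wild type it was 134, 57.9 and 65.1. The lowest wild type library stood 4.03 times above the highest tm2655 library, so the groups did not overlap. The tm2655 mean was 12.4% of the wild type mean, with a log2 fold change of -3.004 ± 0.39 (SE, n = 3 against 3) and a 95% interval from -3.90 to -2.11. The unadjusted edgeR p was 3.94e-05, and after adjustment over all genes it was 0.316, which did not pass the threshold. The nas-38 call thus depended on the tool, because DESeq2 gave an adjusted p of 2.89e-12 and the authors' deposited table gives a corrected p of 5.92e-12 with an 8.64-fold lower level in tm2655. In ok3407 the same gene stood at 227, 375 and 337 CPM, which was higher than in tm2655 by a log2 fold change of 4.87 (edgeR adjusted p 0.00113).

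Transcript from nas-38 was still present in tm2655, and it was spread differently between introns and exons. The libraries held 287, 436 and 221 gene reads in tm2655 against 1696, 1955 and 1401 in wild type. Intron reads made up 11.5%, 11.9% and 11.8% of them in tm2655, 5.66%, 6.39% and 5.14% in wild type and 6.31%, 7.77% and 6.91% in ok3407. All 3 tm2655 libraries were therefore above the other 6 in intron share, with 26 to 52 intron reads each. Reads across exon junctions were 76.0%, 73.2% and 76.9% of exon reads in tm2655 and 81.1%, 79.8% and 83.3% in wild type. In ok3407 they were 75.8%, 76.8% and 75.9%, within the tm2655 range, so a lower junction share was seen in both alleles. The deposited annotation places nas-38 on the forward strand of chromosome X at 558190 to 563629, with 18 exons and 2238 bases of exon. The counts cover the whole gene, so they do not show which exons the remaining reads came from, nor what the lesion removes. Genes beside nas-38 stayed near wild type: of 13 tested genes within 50000 bases, 0 had an unadjusted p under 0.05, with log2 fold changes from -0.75 to 0.78. Its close neighbour mrp-2, a transporter of the ABC family, stood at 21.8 CPM in tm2655 and 20.98 in wild type.

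**Figure D2:**
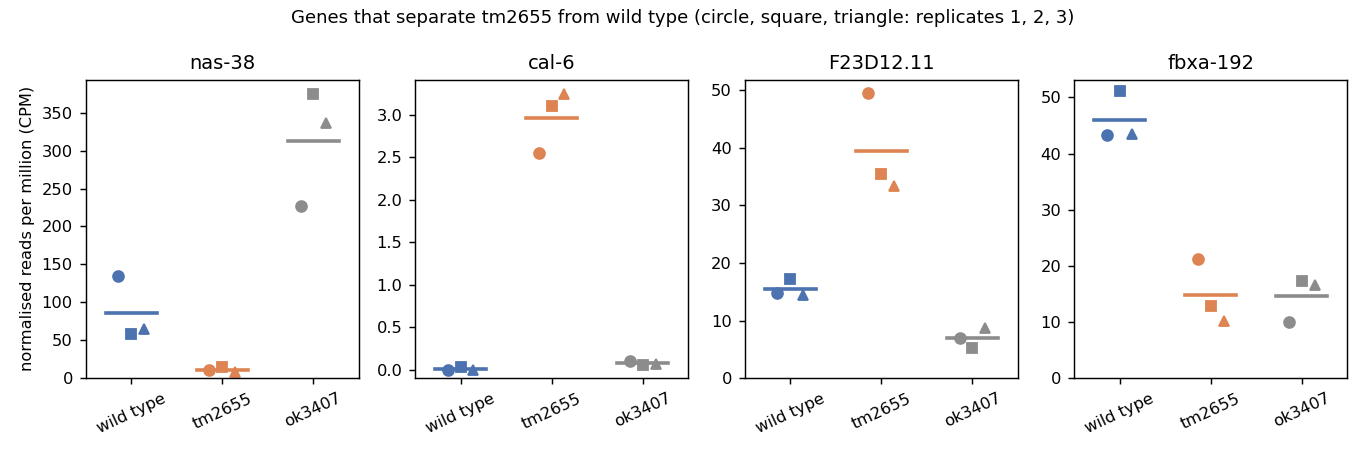
CPM in each library for nas-38, cal-6, F23D12.11 and fbxa-192, with a bar at the group mean and a marker per replicate; each panel has its own linear axis. The tm2655 libraries lie below wild type in nas-38 and fbxa-192 and above it in cal-6 and F23D12.11, with no overlap in any of the 4 genes.

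The gene called higher, cal-6, was nearly silent in wild type. It belongs to the calmodulin family by name, RefSeq lists it as a pseudogene, and its function is not known from the files. It had 73, 94 and 95 reads in tm2655 replicates 1, 2 and 3, against 0, 1 and 0 in wild type and 3, 2 and 3 in ok3407. The tm2655 levels were 2.55, 3.10 and 3.25 CPM. With a single wild type read, the ratio of scaled reads was 202 with an exact 95% interval from 35.9 to 8000, which covers counting error only. Against ok3407 the ratio was 39.5 (19.8 to 92.5). The edgeR adjusted p was 0.00825 against wild type and 0.000915 between the 2 alleles. It missed the threshold when any 1 of the 6 libraries other than tm2655 replicate 1 was left out, with adjusted p from 0.0642 to 0.148, and was 0.0414 without that replicate. The fitted log2 fold change was 6.88 to 9.41 over these fits and 7.32 with all libraries, values that depend on the prior count because wild type was near 0. All cal-6 reads mapped uniquely, and 22.1% to 27.7% of them in tm2655 fell in the intron. The gene lies on chromosome X at 139221 to 139640. Its 10 tested neighbours within 50000 bases gave 0 unadjusted p under 0.05, with log2 fold changes from -0.30 to 0.68.

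Among the remaining genes, F23D12.11 and fbxa-192 came next by p-value. They were chosen after their values were seen, as were all genes named here other than nas-38, cal-6 and the 12 listed in the processing notes. F23D12.11 is a small gene of unknown function at 14423925 to 14424698 on chromosome X. It stood at 49.6, 35.5 and 33.3 CPM in tm2655 and 14.8, 17.2 and 14.4 in wild type. The lowest tm2655 library was above the highest wild type library, and the log2 fold change was 1.35 ± 0.22 (SE), with an edgeR adjusted p of 0.699 and a DESeq2 one of 0.000322. In ok3407 it was 6.95, 5.20 and 8.68 CPM, lower than in tm2655 by a log2 fold change of -2.50 (adjusted p 0.000915). Its neighbour fipr-3, a fungus-induced peptide gene, had a log2 fold change of 0.40 ± 0.28.

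The F-box gene fbxa-192, of a family whose members recruit substrates to ubiquitin ligases, showed the opposite order. It was at 21.2, 12.8 and 10.3 CPM in tm2655 and at 43.3, 51.1 and 43.4 in wild type. The groups did not overlap, and the log2 fold change of -1.64 ± 0.29 (SE) had an edgeR adjusted p of 0.971 and a DESeq2 adjusted p of 0.00044. Most fbxa-192 reads fell in introns, 55.9% in tm2655 and 66.7% in wild type, beside 8.78% to 9.34% over all genes in these libraries. Its exon reads scaled to exon length and library size were 7.45, 3.71 and 3.97 in tm2655 and 11.02, 13.25 and 10.34 in wild type. The ok3407 mean was 14.6 CPM, and the 2 alleles differed by -0.01 (log2, 95% bounds of 0.638 to 1.54 on the fold). The trehalase gene tre-2 had 39.5, 73.1 and 47.7 CPM in tm2655 and 102, 129 and 97.2 in wild type, a log2 fold change of -1.03 ± 0.22 with an edgeR adjusted p of 0.9985. In ok3407 tre-2 was also below wild type, at 70.8, 53.9 and 59.6 CPM, and the alleles differed by 0.20 on the log2 scale (edgeR adjusted p 0.701).

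The authors' deposited table lists 7 genes for tm2655, with a corrected p of at most 0.0419 and a change of at least 2.39-fold. Of these 6 are higher there, led by cal-6 (114-fold) and Y39G8B.7 (35.4-fold), and nas-38 is lower. Y39G8B.7 was mostly a feature of 1 library, with 5.25 CPM in tm2655 replicate 1 against 0.692 and 0.650 in the others and 0 to 0.0889 in wild type. Without that replicate its edgeR log2 fold change was 3.49. T10B5.8 was at 13.3, 11.7 and 18.1 CPM in tm2655 and 4.43, 4.68 and 5.90 in wild type, with no overlap and a log2 fold change of 1.52 ± 0.58. F37H8.3 was at 88.1, 56.6 and 51.2 against 26.2, 26.9 and 27.9 CPM, 1.27 ± 0.85. The pud-1.1 gene, of a family first described as protein up-regulated in daf-2, was at 76.3, 102 and 145 against 41.3, 10.3 and 20.4 CPM. Only 0.0217% of its reads mapped uniquely, because near-identical copies exist, so its level is uncertain. The edgeR adjusted p was 0.9985 for each of these other than F23D12.11, cal-6 and nas-38.

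On the 6 libraries alone, DESeq2 called 16 genes (0.0921%), 13 higher and 3 lower, and the edgeR exact test with tagwise dispersions called 18 (0.117%), 15 higher and 3 lower. Both called every gene of the authors' deposited table and also clec-60, while lys-7 and tts-1 were called by the exact test only. The authors' test also used tagwise dispersions and the data are the same, so this overlap is not a separate check. The lysozyme lys-7, an antibacterial effector of the intestine, was at 90.6, 30.97 and 126 CPM in tm2655 and 26.6, 7.64 and 24.3 in wild type. The lectin gene clec-60, an intestinal infection-response gene, was at 4.06, 2.17 and 8.96 against 0.553, 0.474 and 1.35 CPM. Both genes had groups that did not overlap but a wide spread within tm2655, and the edgeR quasi-likelihood test on 9 libraries gave each an adjusted p of 0.9985. The long non-coding RNA tts-1 was at 38.01, 1.19 and 24.8 CPM in tm2655 and 0.790, 1.84 and 1.30 in wild type, so its groups overlapped.

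Epidermal antimicrobial peptide genes were not called in tm2655, and most were loosely bounded. Of 11 nlp peptide genes of the epidermis, 10 were tested, 0 were called, and 4 had positive and 6 negative log2 fold changes, with a median of -0.11. The 95% interval lay within 2-fold for 3 of them (30%, beside 64.8% of all genes), and the median ran from -0.42 to 0.18 when 1 library was left out. For nlp-29, the standard reporter of epidermal infection and wounding, the CPM was 79.2, 23.4 and 12.3 in tm2655 and 45.7, 14.8 and 30.2 in wild type. These ranges overlapped fully, and the log2 fold change of 0.35 ± 0.69 had a 95% fold interval that reached from 0.427 to 3.80. Without tm2655 replicate 1 the estimate was -0.75. The related nlp-34 was at 7.66, 6.52 and 6.19 CPM in tm2655 and 22.8, 6.84 and 11.8 in wild type. Its tm2655 libraries lay at or near the lowest wild type library, so the ranges overlapped, with a log2 fold change of -1.002 ± 0.40 (unadjusted p 0.0333, adjusted 0.9985). Only nlp-28 had an interval above 0, and it rested on 1 library, at 33.9 CPM in tm2655 replicate 1 against 4.48 and 4.96 in the others and 1.90 to 4.28 in wild type.

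The difference between the alleles was tested directly for these peptides. Between ok3407 and tm2655, 374 genes were called higher in ok3407 (2.33%) and 271 lower (1.69%), and all 3 ok3407 libraries lay above tm2655 for 11.2% of genes and below for 12.3%. Of the 10 nlp genes, 6 were called higher and 0 lower. nlp-34 stood at 165 CPM on average in ok3407, a log2 fold change of 4.60 over tm2655 (edgeR adjusted p 0.00192). nlp-31, which lies in the same peptide cluster, was at 12.6, 12.4 and 10.8 CPM in tm2655 and averaged 131 in ok3407. For nlp-29 the adjusted p was 0.0573 with all libraries. It was 0.0214 without tm2655 replicate 1, its highest tm2655 library, and 0.0588 to 0.175 without each of the other 5 tm2655 and wild type libraries. These 2 alleles share no control samples in that contrast.

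Caenacins, a second family of glycine-rich epidermal peptides, were also uncalled and still less tightly bounded. Of 11 genes 10 were tested, 0 were called between tm2655 and wild type, and the median log2 fold change was -0.08, or -0.40 to 0.41 when 1 library was left out. The interval lay within 2-fold for 1 of the 9 members with reads in these strains. The median within-group standard deviation of log2 CPM, taken over all genotypes with ok3407 included, was 0.87. cnc-2 was at 2.87, 1.55 and 1.16 CPM in tm2655 and 4.11, 0.978 and 1.63 in wild type, overlapping ranges at a low level. It averaged 91.4 CPM in ok3407, and the allele difference was 5.62 on the log2 scale (adjusted p 0.00402). In all, 6 of the 10 caenacins were called higher in ok3407 than in tm2655 and 0 lower. cnc-6 had no reads in any tm2655 or wild type library. Summed over the tested members, caenacin levels were 67.4 to 110.3 CPM in tm2655, 64.9 to 107.9 in wild type and 311 to 472.8 in ok3407. Of 36 fungus-induced peptide genes 22 were tested and 0 were called, at an adjusted or an unadjusted p under 0.05. Their estimates leaned higher, with 20 of 22 positive (90.9%, beside 52.4% of all genes) and a median of 0.36, which was 0.22 to 0.59 when 1 library was left out. In 0 of them did all tm2655 libraries lie above wild type. Between ok3407 and tm2655, 2 of the 22 were called higher in ok3407 and 0 lower, with a median log2 fold change of -0.19. The members fip-5 and fip-6 stood at 5.996 to 12.6 and 1.33 to 2.47 CPM in tm2655, within or next to the wild type ranges of 7.20 to 8.79 and 1.21 to 4.19.

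**Figure D3:**
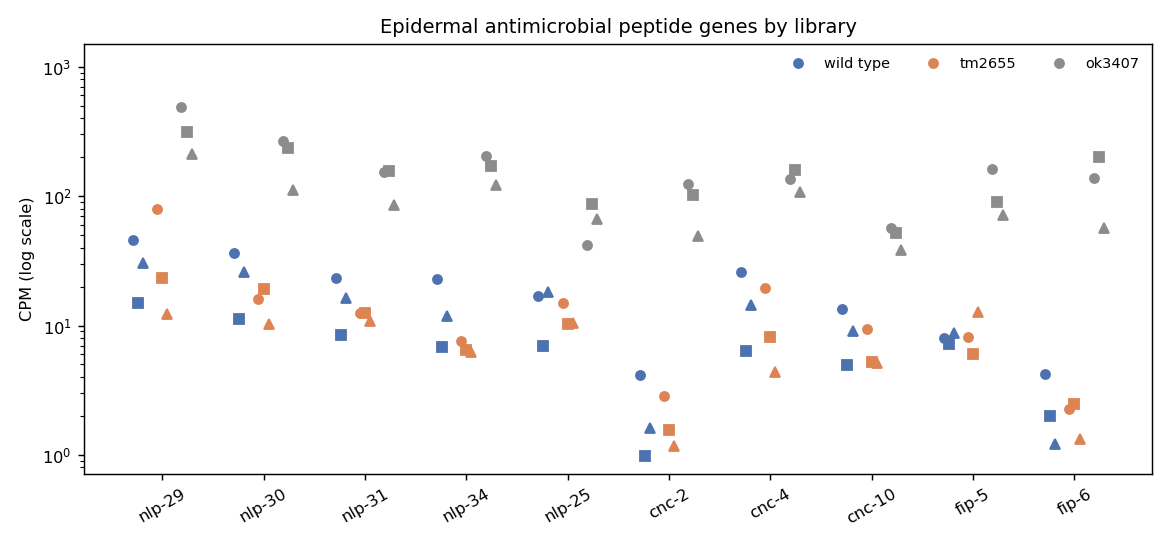
CPM on a log axis for 10 epidermal peptide genes, with a marker for each of the 9 libraries, coloured by genotype. The 10 genes were picked by hand and do not stand for every member of their families. For these 10 genes the tm2655 points lie among or close to the wild type points, and the ok3407 points lie above both. The gene nlp-28, not shown, was at 33.9, 4.48 and 4.96 CPM in tm2655 and 11.8, 7.97 and 4.93 in ok3407.

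The kinase cascade and transcription factors that control these peptides did not pass the test. All 31 listed genes of epidermal immune signalling were tested, the median log2 fold change was 0.01, and the 95% interval lay within 2-fold for 29 of them. pmk-1, the p38 kinase, was at 21.8, 19.7 and 16.5 CPM in tm2655 and 16.3, 22.96 and 15.5 in wild type (0.08 ± 0.19). The upstream kinase gene sek-1 had -0.14 ± 0.11 and the adaptor gene tir-1 had -0.26 ± 0.15. tir-1 was at 27.9 to 37.2 CPM in tm2655 and averaged 63.2 in ok3407. The STAT-like gene sta-2 was at 22.3 CPM in tm2655 replicate 1, with 7.70 and 9.54 in the other tm2655 libraries and 7.70 to 9.24 in wild type. Its log2 fold change of 0.66 ± 0.39 became 0.05 without that replicate.

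Genes of sleep and of the sleep-active neurons were also close to wild type. Of 37 listed genes 35 were tested, with 0 called, a median log2 fold change of 0.01, and a 95% interval within 2-fold for 27. All tm2655 libraries lay above wild type for 4 of them (11.4%, beside 3.85% of all genes) and below for 1. flp-11, the main sleep peptide of RIS, was at 8.64, 10.015 and 9.68 CPM in tm2655 and 8.46, 8.80 and 10.1 in wild type. Its log2 fold change was 0.05 ± 0.17, so the interval allows 0.791 to 1.35 times the wild type level. nlp-8, a sleep peptide of the neuron ALA, was at 9.41, 9.85 and 10.9 against 9.65, 10.2 and 9.16 CPM, 0.06 ± 0.15. It averaged 19.1 CPM in ok3407, above tm2655 by 0.92 on the log2 scale (edgeR adjusted p 0.0109). let-23, the EGF receptor that ALA uses, had 0.29 ± 0.19, and the neuropeptide receptor gene npr-12 had 0.21 ± 0.24. The gene of the transcription factor APTF-1, which RIS needs, was read at 0.198 to 0.342 CPM in tm2655, so a change in it was hard to detect (-0.87 ± 0.55).

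**Figure D4:**
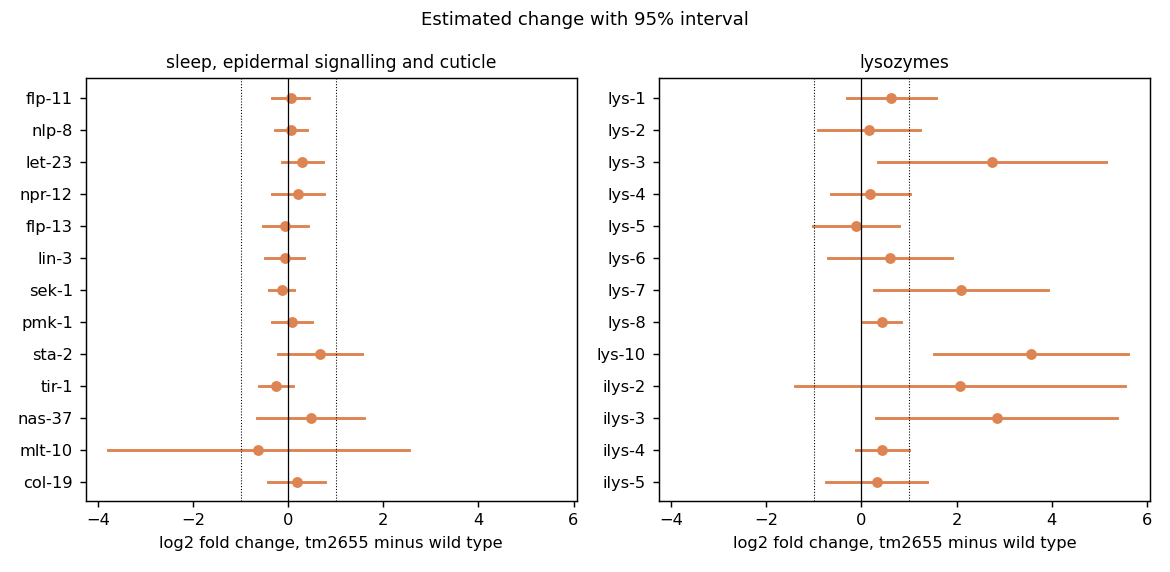
Log2 fold change, tm2655 minus wild type, with its 95% interval for 13 genes of sleep, epidermal signalling and cuticle (left) and for the 13 lysozymes tested (right). Dotted lines mark 2-fold; flp-11, nlp-8, let-23 and npr-12 lie within them, mlt-10 is poorly bounded, and 12 of 13 lysozyme estimates are above 0.

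Cuticle and molting genes varied so much between libraries of 1 genotype that changes in them were poorly bounded. The 148 tested collagens had a median log2 fold change of -0.07, and 48 had intervals within 2-fold (32.4%, beside 64.8% of all genes). Their median within-group standard deviation of log2 CPM, taken over all genotypes with ok3407 included, was 0.68, beside 0.30 over all genes. The 6 furrow collagens, whose loss switches on epidermal immune genes, had positive estimates from 0.69 to 1.97. Their within-group deviation, again with ok3407 included, was 1.75. dpy-7 was at 2.45, 3.76 and 0.342 CPM in tm2655 and 1.98, 0.415 and 0.093 in wild type, overlapping ranges. The smallest unadjusted p of the 6 was 0.143. The adult collagen col-19 stood at 0.17 ± 0.27 over wild type, and it was lower in ok3407 than in tm2655 by a log2 fold change of -2.31 (adjusted p 0.00345). Of 42 molting genes 0 were called, with a median of -0.05. mlt-10, a gene expressed in pulses at each molt, had -0.63 ± 1.38, and 1.83 without wild type replicate 1. The astacin nas-37, a protease needed to shed the cuticle, was at 17.9, 16.1 and 4.65 CPM in tm2655 and 14.5, 6.22 and 7.44 in wild type (0.47 ± 0.49). Of 36 other astacins 29 were tested, 0 were called, and the median log2 fold change was -0.07. nas-10 was at 0.103 to 0.525 CPM in tm2655 and 0 to 3.00 in wild type, while it averaged 155 in ok3407.

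Lysozymes and C-type lectins leaned above wild type without passing the test. Of 13 tested lysozymes, 12 had positive log2 fold changes and the median was 0.60, beside 0.01 over all genes. Unadjusted p was under 0.05 in the higher direction for 5 of them (1.82% of all genes), which became 1 without tm2655 replicate 1 and 1 without wild type replicate 2, and 3 had all tm2655 libraries above wild type (3.85% of all genes). lys-8, at 340, 269 and 283.8 CPM against 260, 168 and 237, was the most abundant of those 3, the others being lys-7 and lys-10. lys-10, at 0.629, 0.395 and 2.33 CPM against 0.158, 0.0889 and 0.0465, had the smallest p (unadjusted 0.003, adjusted 0.9985). The summed level of the 13 genes was 1826 to 2832 CPM in tm2655 and 1340 to 2126 in wild type, which overlap. Their median remained above 0 when each of the 6 libraries was left out in turn, from 0.44 without tm2655 replicate 1 to 0.74 without wild type replicate 3. The lysozyme median was 0.48 for ok3407 against wild type and -0.02 for ok3407 against tm2655, and both alleles were set against the same 3 wild type libraries. The summed level in ok3407 was 1156 to 1446 CPM, below tm2655 and at the low end of the wild type range or under it. Between ok3407 and wild type, 3 of the 13 lysozymes were called higher and 1 lower.

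Of 140 tested C-type lectins, secreted carbohydrate-binding proteins of which many respond to bacteria, 98 had positive estimates and the median was 0.22. Leaving out 1 library gave 0.09 to 0.28, with the lowest value without wild type replicate 2, where 83 estimates were positive and 62 negative. The tm2655 libraries lay above wild type for 16 of them (11.4%, beside 3.85% of all genes) and below for 1. For ok3407 against wild type the median of the lectins was -0.09. clec-5, the most abundant of those with the smallest p-values, was at 90.3, 59.4 and 94.8 CPM in tm2655 and 46.2, 45.1 and 62.3 in wild type. Its ranges overlapped slightly, and its log2 fold change was 0.67 ± 0.19. The 11 listed genes known as targets of the PMK-1 pathway in the intestine, of which lys-2 is also a lysozyme, gave 7 positive estimates and a median of 0.13. That median was -0.09 without tm2655 replicate 1 and -0.05 without wild type replicate 3, and 0 of the 11 had an unadjusted p under 0.05. Of the 20 markers of the intestine 15 had positive estimates, the median was 0.11 (-0.03 without wild type replicate 2), 15 had intervals within 2-fold, and 0 were called. The metallothionein mtl-1 was their exception in size, at 5.07, 0.132 and 9.40 CPM in tm2655 and 0.0465 to 1.11 in wild type, an overlapping and uneven pattern. The part of intestinal RNA content in the lysozyme and lectin estimates was not tested.

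Part of what set tm2655 apart came from replicate 1 alone. In that library 95 genes were at least 1 log2 unit above each of the other 8 libraries, a number that was 1 to 33 in the other tm2655 and wild type libraries and 60 to 95 in ok3407. Most of the 95 belonged to none of the gene lists. The 95, out of 16055 genes tested, included 5 of the 188 tested F-box genes. They also included 4 of the 29 tested genes of the intracellular pathogen response, the programme induced by microsporidia and virus. C17H1.7, now named pals-6, was at 13.9 CPM in that library, 1.09 and 1.13 in the other tm2655 libraries and 0.232 to 2.43 in wild type. F22G12.1, now pals-14, was at 2.66 CPM there against 0.158 to 0.494 in the other tm2655 and wild type libraries. The fungus-induced gene fipr-22 was at 30.7 CPM against 0.978 to 3.56, with 53.2% of its reads mapped uniquely. Over the 29 tested genes of the pathogen response the median log2 fold change was 0.45, and without tm2655 replicate 1 it was 0.11. For F-box genes the median of 0.19 became -0.01, and that of the lectins fell from 0.22 to 0.16.

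Genes of bulk tissue and growth were measured most tightly. All 35 tested germ line genes had 95% intervals within 2-fold, with a median of 0.03, as had 25 of 26 muscle markers, with a median of -0.12. The myosin gene unc-54 was at 5609, 6456 and 6883 CPM in tm2655 and 7635, 6382 and 7807 in wild type. Its ranges overlapped, and it averaged 4347 CPM in ok3407. Of 79 tested cytosolic ribosomal protein genes 78 had negative estimates with a median of -0.12, which was -0.26 to -0.04 when 1 library was left out, yet their summed level of 111200 to 124400 CPM in tm2655 lay inside the wild type range of 106600 to 142300. Mitochondrial chaperones were the tightest small group. All 10 mitochondrial stress genes had intervals within 2-fold, 9 had negative estimates, the median was -0.17, and for 6 of them all tm2655 libraries lay below wild type (2.62% of all genes). hsp-6, the mitochondrial Hsp70, was at 615, 711 and 723 CPM in tm2655 and 778, 958 and 873 in wild type. Its log2 fold change of -0.35 ± 0.13 had an unadjusted p of 0.0267 and an adjusted p of 0.9985. The median of this list ran from -0.20 to -0.13 over the other scalings and with each library left out, but the 6 genes without overlap became 2 with total library size scaling and 5 with upper quartile scaling. For ok3407 against wild type the median of this list was -0.35.

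**Figure D5:**
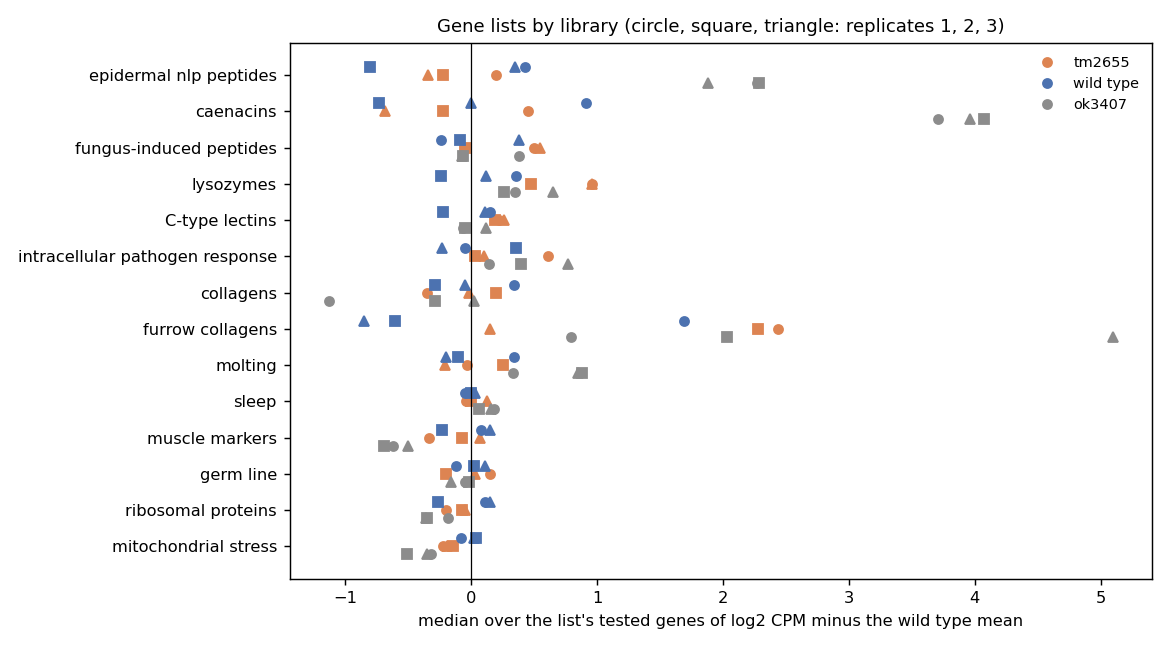
For 14 gene lists, the median over tested genes of log2 CPM minus the wild type mean, with 1 marker per library and genotypes in separate rows of markers. Furrow collagens range from -0.85 to 5.10, sleep genes from -0.05 to 0.18, and the nlp peptides and caenacins of tm2655 lie among the wild type values while those of ok3407 lie at 1.88 and above.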

How the data were processed

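Stranded mRNA libraries of whole L4 larvae in lethargus were sequenced as 75-cycle paired-end reads, 3 biological replicates per genotype, per the labels. Coordinates are those of the deposited tables, and their build, like the aligner and the way reads were counted, is not given in the sources used here. Per the file headers, the authors give raw read counts of each gene as total, unique, exon, intron and exon-exon reads. RPKM values, exon reads scaled to exon length and library size, were deposited beside them. The authors' deposited table for tm2655 holds, per its header, the p-value of the EDGE test with tagwise dispersions and its correction. That deposited table also holds a score, a signed fold with a minus sign for lower levels in tm2655.

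Total gene read counts were filtered with filterByExpr on the 3 groups and fitted over all 9 libraries by edgeR's robust quasi-likelihood method, with TMM factors and a term for each group. The contrasts were tm2655 against wild type, ok3407 against wild type and ok3407 against tm2655, with Benjamini-Hochberg adjustment over all 16055 genes and a threshold of 0.05. The labels give no batch and do not say that replicate numbers pair the samples, so the main model had no replicate term. Reads carry no molecular identifiers, so exact intervals cover counting error only.

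The comparison and the 44 gene lists were chosen with earlier results of these data known. Named genes were nas-38, up to 12 called rises and 12 called falls (mean not under 1 CPM, groups without overlap), called list members, and 12 others: nlp-29, nlp-34, cnc-2, flp-11, nlp-8, let-23, npr-12, nas-37, mlt-10, col-19, sta-2 and pmk-1. Current gene names are from RefSeq (44688 deposited names matched directly and 1626 through another name). Alternatives were other scalings and filters, DESeq2, limma-trend on log2(RPKM + 1), 6 libraries, read kinds, a replicate block and leaving out each library; 2 tests on 6 libraries were added after the data were seen. The scripts were tested on simulated data. The software was Python 3.11.15 (matplotlib 3.10.9, numpy 2.4.6 and pandas 2.3.3) and R 4.3.3 (DESeq2 1.42.0, limma 3.58.1 and edgeR 4.0.16).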

Additional observations from a re-analysis of the deposited data

How the results depend on the processing

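The count of 1 gene higher and 0 lower was the same with RLE, upper quartile or total library size scaling, without a filter, with 6 libraries, with limma-trend on RPKM values and with uniquely mapped reads. It was 0 higher with exon reads only. A filter of 5 CPM in 3 libraries also gave 0 higher, but it removed cal-6, at 2.55 to 3.25 CPM in tm2655, before testing. The count was 2 higher and 2 lower by DESeq2, 13 higher and 3 lower by DESeq2 on 6 libraries, and 15 higher and 3 lower by the exact test on 6 libraries. Leaving out 1 library gave 0 to 1 higher and 0 lower. Apart from the filter of 5 CPM, the cause of these differences was not tested. The log2 fold change of nas-38 ran from -3.28 to -2.53 over the alternatives run, which are also the ends when 1 library was left out, and it was past the threshold by DESeq2 (-3.02), DESeq2 on 6 libraries (-3.02) and the exact test (-3.01). Replicate numbers 1, 2 and 3 gave correlations of deviations between tm2655 and wild type of 0.032, 0.019 and 0.40. These uneven values do not decide whether the numbers pair the samples, which the labels do not state. With a replicate block 0 genes were called higher and 0 lower, and nas-38 was at -3.01.

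Among genes with no call, estimates near 0 changed sign. Leaving out 1 library gave ranges of -0.60 to 0.54 for cnc-2, -0.75 to 0.77 for nlp-29, -0.01 to 0.49 for col-19, -0.00 to 0.13 for flp-11, -0.01 to 0.10 for nlp-8, -0.03 to 0.27 for pmk-1 and -2.61 to 1.83 for mlt-10. On RPKM values cnc-2 was at 0.00 and nlp-29 at -0.06, and on exon reads flp-11 was at -0.03. The spread between replicates of 1 genotype limited cuticle and molting genes.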

Other observations

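Some gene families outside the comparisons above also leaned one way without a call in edgeR. Of 206 tested nuclear hormone receptor genes, ligand-regulated transcription factors, 132 had positive log2 fold changes, the median was 0.12, and 20 had all tm2655 libraries above wild type (9.71%, beside 3.85% of all genes). Leaving out 1 library gave medians of 0.07 to 0.16, and the median for ok3407 against wild type was 0.16. nhr-141 was at 1.40, 1.22 and 1.33 CPM in tm2655 and 0.474, 0.711 and 0.558 in wild type. Of 66 tested cytochrome P450 genes, which oxidise xenobiotics and lipids, 50 had positive estimates with a median of 0.24, or 0.21 to 0.31 when 1 library was left out. Their median for ok3407 against wild type was 0.31. Of 15 genes of the endoplasmic reticulum stress response 13 had negative estimates with a median of -0.25 (-0.29 to -0.10 when 1 library was left out), and hsp-4, its Hsp70 chaperone, was at 425, 628 and 471 CPM against 514, 1016 and 754. The hsp-4 ranges overlapped, and its estimate was -0.58 ± 0.34 (edgeR adjusted p 0.9985). The median of the 15 genes for ok3407 against wild type was -0.16.

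Lipid metabolism genes showed both directions. Of 71 tested, 9 had unadjusted p under 0.05 in the higher direction (beside 1.82% of all genes) and 1 in the lower (beside 0.654%), and 0 were called. The 9 became 1 without tm2655 replicate 1 and 1 without wild type replicate 2. The desaturase gene fat-3 was at 114, 69.9 and 124 CPM in tm2655 and 61.5, 65.3 and 68.4 in wild type, with no overlap and a log2 fold change of 0.65 ± 0.25. The acyl-CoA synthetase gene acs-4 was at 319, 507 and 398 CPM against 486, 632 and 563, -0.45 ± 0.17. The desaturase gene fat-7 varied most between replicates of these, at 4.86, 19.9 and 110 CPM in tm2655 and 16.4, 143 and 234 in wild type, with overlapping ranges.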
